A study of Mus musculus with 40 samples.

Results

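The ion channel transcripts described here were 81 rows, from 61 genes, of a deposited cortex table of 6831 transcripts. Their gene symbols begin with Scn, Cacna, Cacnb, Kcn or Hcn, and symbols beginning with Kcnd or Kcnip were left out. The 81 rows held 44 potassium channel, 23 calcium channel, 11 sodium channel and 2 HCN channel transcripts. The remaining row was Kcnq1ot1, a non-coding RNA that carries a channel gene's name but encodes no channel. Cortex was taken from male C57BL/6 mice (C57Bl/6J in the study's methods) aged 12 weeks, and each of 4 groups had 10 libraries. Saline sham mice received saline and handling without impact. Saline HF-HI mice received saline and high-frequency head impact (HF-HI), a model of repeated mild impacts to the head over several days. Memantine sham and memantine HF-HI mice received memantine, which blocks NMDA receptors of glutamate, in place of saline. Saline or memantine was injected 1 h before each session, tissue was taken 24 h after the last session, and by the study's methods sham mice had the same handling and isoflurane anaesthesia as impacted mice.

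Voltage-gated channels open or close as the membrane potential moves. Sodium channels carry the upstroke of the action potential, calcium channels couple depolarisation to transmitter release and signalling, and potassium channels set the resting potential, repolarise the cell and shape its firing, while HCN channels carry an inward current on hyperpolarisation. Pore-forming subunits work with auxiliary subunits that alter their gating and their delivery to the membrane. In cortex, sodium channels and several Kv1 channels sit at the axon initial segment and along the axon, calcium channels of the Cav2 type at nerve endings, and Kv2 and HCN channels on the soma and dendrites.

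The summed counts of a library ran from 13322404 to 17529644, and the channel transcripts took 1.46% of all counts. Values are given as normalised counts, and changes as the percent change of the mean count or, for tests, on the deposited log2 scale, which compresses changes. At a count of 1000, a change of 1 log2 unit in the count appears as 0.40 on the deposited scale. A transcript is called higher or lower where its unadjusted limma p-value was under 0.05. The study used DESeq2 in place of limma. For the memantine experiment it counted changes at P < 0.05, without saying whether that P was adjusted. No channel transcript reached a Benjamini-Hochberg adjusted p-value under 0.1 in any of the 6 contrasts, and each call below is at the unadjusted level. In the table as a whole, 0.205% of transcripts reached it in saline HF-HI against saline sham, 0.0146% for impact under memantine, 0.0293% for the drug in sham mice, 0 for the drug in impacted mice, 0 for the interaction and 0.425% for impact over both drug arms. The libraries contain a whole cortex dissection, in which fewer cells of a type and less RNA per cell cannot be told apart. All 6 marker genes of cortical excitatory neurons were present. Transcripts of 7 of 10 striatal marker genes were present too, while Adora2a, Drd2 and Tac1 had no row. The summed count of the striatal transcripts present ran from 24162 to 40472 in saline sham and from 23616 to 35367 in saline HF-HI.

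The level of each family was set per kb of transcript, which allows genes to be compared. In saline sham the auxiliary sodium channel subunits had the highest summed level, 5441 ± 214 normalised counts per kb (SD, n = 10), beside 5401 ± 207 for saline HF-HI, 5611 ± 247 for memantine sham and 5496 ± 233 for memantine HF-HI. Scn2b had 1572 ± 51.8 and Scn4b 1132 ± 146. The Kv1 family followed with 3665, led by Kcna1, a low-threshold axonal potassium channel, at 2027 ± 144. The inward rectifiers had 3031 in sum and were led by Kcnj4 at 763 ± 88.3. The alpha2delta subunits of calcium channels had 2805, led by Cacna2d1 NM_001110844 at 1272 ± 445, and the calcium channel beta subunits had 2591, led by Cacnb4 NM_001285426 at 491 ± 124. The Kv beta subunits had 2559, with Kcnab2 at 1213 ± 78.8.

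Pore-forming sodium channel subunits had 2195 in sum, with Scn8a NM_011323 at 886 ± 132 per kb, but this leaves out both rows of Scn2a, which had no matching transcript model and so no length. By counts that are not divided by length, the sodium channel pore family ranked 1 of 21 groups and the auxiliary sodium subunits ranked 4. Among the other leading transcripts per kb were Kcnc2, a fast delayed rectifier, at 975 ± 111 and Cacna1e, the R-type calcium channel pore, at 805 ± 53.1. Kcnk1, a two-pore leak channel, had 665 ± 43.6. Lower levels were held by Kcnv1 (546 ± 66.6), a modifier subunit, by the sodium-activated Kcnt2 (507 ± 41.9), by Kcnh5 of the ether-à-go-go family (490 ± 28.4) and by Kcnmb4 (489 ± 46.4), the neuronal auxiliary subunit of large-conductance calcium-activated channels. Hcn2 had 467 ± 30.0 and Kcnn2, a small-conductance calcium-activated channel, 368 ± 29.8. T-type Cacna1i had 315 ± 24.9 and L-type Cacna1d 292 ± 49.7, whose families had the lowest summed levels of channel families.

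**Figure D1:**
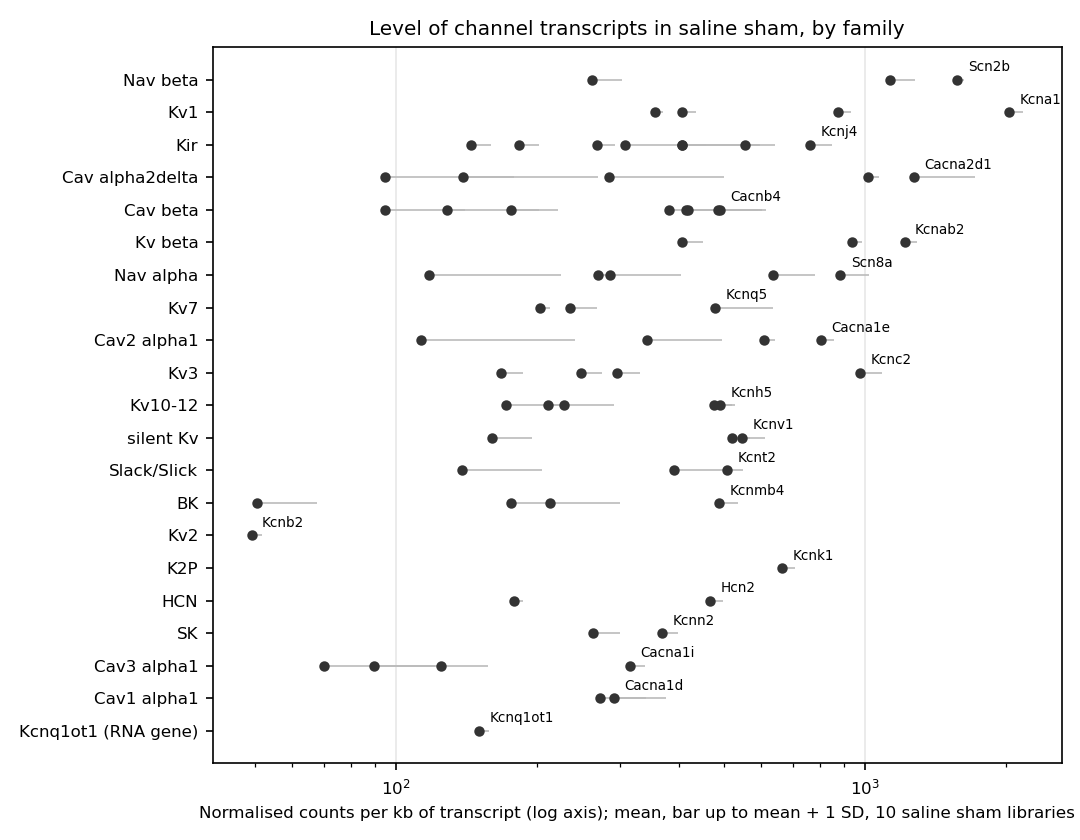
Mean normalised counts per kb (log axis) of 75 channel transcripts in the 10 saline sham libraries, by family, with bars reaching to the mean plus 1 SD. The highest plotted transcript of each family is named, and levels run from 49.2 for Kcnb2 to 2027 for Kcna1.

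Genes with a single row were measured more steadily than the separate rows of genes with several. The coefficient of variation was the pooled SD within groups divided by the mean of all 40 libraries. Among the 46 rows of single-row genes it had a median of 8.37% and ran from 2.72% for Scn2b to 33.7% for Cacna1c, the L-type pore. Among the 35 rows of the 15 genes with several rows the median was 33.0% and the highest value was 128%, while the sums of these genes had a median of 9.63%. For Scn8a, the sodium channel of the axon initial segment and node, the rows had 117% and 24.1% but the sum 4.86%. For Kcnj3, a G-protein-gated inward rectifier, they had 128% and 46.5% against 7.28% for the sum. In both genes, libraries with a high count of one row had a low count of the other.

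The counts of Scn8a NM_001077499 had a lowest value of 345, a median of 715 and a highest value of 3701 in the saline sham group. The same values were 330, 1044 and 8851 for saline HF-HI, then 186, 606 and 8724 for memantine sham and 168, 2018 and 5640 for memantine HF-HI. The groups overlapped throughout, and the row took from 1.32% to 75.7% of the gene's counts, with a median of 8.72%.

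In their coding part, the rows of Kcnq5, an M-current potassium channel, differ by a short stretch. The matched transcript models also differ in length, with 2775 bases for NM_001310477 and 6562 for NM_023872. NM_023872 has 27 coding bases that NM_001310477 lacks (GENCODE M21, build GRCm38, chr1:21466383-21466409, minus strand), shown in full since a Kcnq5 row enters the comparisons.
Kcnq5 NM_023872: gaaagaacaaggggaggcatcaagcag
Kcnq5 NM_001310477 took from 2.56% to 65.6% of the gene's counts and Scn1a NM_001313997 from 13.6% to 54.7%. For the P/Q-type calcium channel pore Cacna1a, both rows matched the same transcript model, and NM_001252061 was listed at 0 in 19 of 40 libraries while the sum never was below 2329. Sums by gene are therefore given beside the rows.

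**Figure D2:**
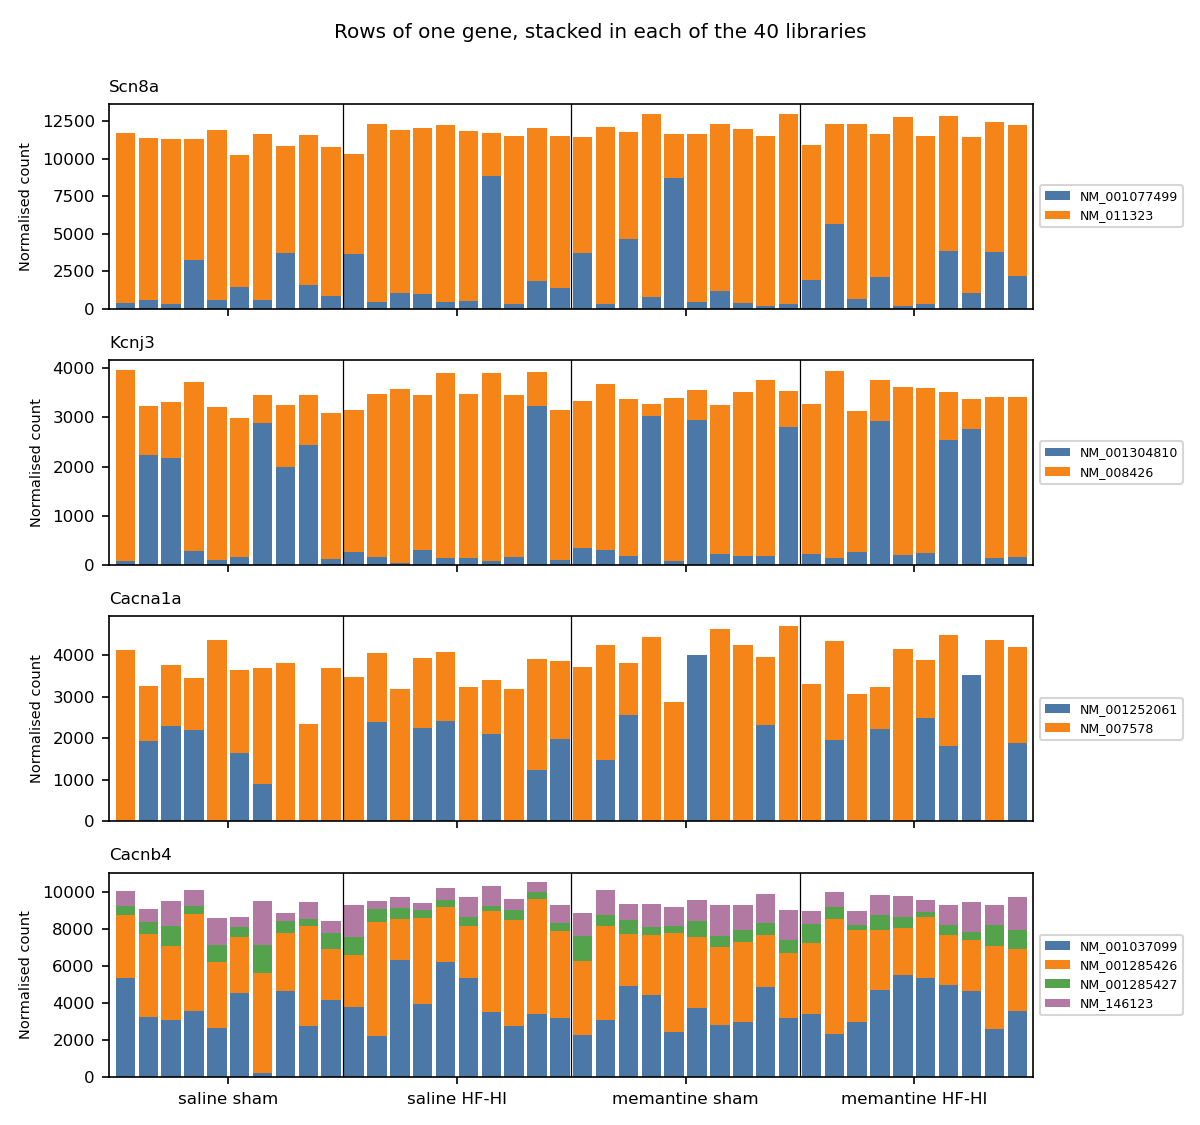
Normalised counts of the separate rows of Scn8a, Kcnj3, Cacna1a and Cacnb4, stacked in each of the 40 libraries and ordered by group. The height of the bars, the gene's sum, varies by 4.86%, 7.28%, 13.1% and 4.79% (coefficient of variation within groups), while the colours within a bar change far more.

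The first comparison asked which channel transcripts differed after head impact without the drug. Between saline HF-HI and saline sham, 16 of 81 channel transcripts (19.8%) were called, against 9.53% of all transcripts. They were 7 higher, against 4.58% of all transcripts, and 9 lower, against 4.95%. The 7 higher ones were all potassium channel subunits, namely Kcnt2, Kcnab3, Kcnj11, Kcnh7, Kcnj9, Kcna1 and Kcnh5. The 9 lower ones were the sodium channel subunits Scn3a and Scn3b, the calcium channel subunits Cacna1e, Cacna2d3 and Cacnb2, and the potassium channel subunits Kcnj2, Kcnn3, Kcnab1 and Kcns2. The changes ran from 4.68% to 25.8% of the mean count in size, and in each case the groups overlapped. All 16 were rows of single-row genes, of which 34.8% were called against 10.6% of such rows in the table, whereas 0 of the 35 rows of genes with several rows were called, against 6.38%. An unadjusted permutation test (two-sided, 100000 resamples) was run here only on the 16, with the same libraries that had selected them. Of the 16, 12 had a p-value under 0.05, which is not separate support for the calls. Those not under it were Cacna1e, Kcna1, Kcnh5 and Kcns2 (permutation test, p = 0.0788, 0.0922, 0.0702 and 0.137). The difference between the shares of called rows was not tested. With each library left out in turn, 8 of the 16 kept the call throughout, namely Kcnt2, Kcnab3, Kcnj11, Kcnj2, Kcnh7, Kcnj9, Kcnn3 and Scn3a, while Kcnh5 lost it in 17, Kcna1 in 10, Kcnab1 in 9 and Scn3b in 4 of 40 such fits.

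Among the sodium channels, Scn3a (NM_018732, chr2:65457118-65567591), a pore subunit best known from the developing brain, was lower by this criterion. Its counts in saline sham had a lowest value of 2147, a median of 2286 and a highest of 2460, and in saline HF-HI 2058, 2150 and 2542. Of the saline HF-HI libraries 9 of 10 lay below the sham mean, and the single one above all sham libraries was replicate 1. The change was −5.85% in the count and −0.048 ± 0.019 (SE) on the deposited scale (limma, p = 0.0185, adjusted p = 0.428). The auxiliary subunit Scn3b had 845, 1095 and 1400 in saline sham and 600, 934 and 1118 in saline HF-HI, a change of −16.4% (limma, p = 0.0291, adjusted p = 0.470), with 8 of 10 libraries below the sham mean.

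Of the calcium channels, Cacna2d3, an alpha2delta auxiliary subunit, had a lowest count of 3244, a median of 3753 and a highest of 4053 in saline sham, and 3342, 3502 and 3954 in saline HF-HI. The change was −5.52% (limma, p = 0.0214, adjusted p = 0.445), with 9 of 10 impacted libraries below the sham mean, although the lowest library of both groups was a sham one. Cacnb2, a beta subunit, fell from a mean of 694 ± 180 to 532 ± 84.9 (SD), a change of −23.4% (limma, p = 0.0312, adjusted p = 0.486), and leaving out any of 6 libraries raised the p above 0.05. Cacna1e changed by −5.01%, from 12005 ± 793 to 11403 ± 657 (limma, p = 0.0490, adjusted p = 0.522), and lost the call when any of 28 libraries was left out.

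The Kv1 channels and their beta subunits moved in both directions. Kcnab3, a beta subunit, had a lowest count of 884, a median of 1013 and a highest of 1224 in saline sham and 920, 1197 and 1402 in saline HF-HI. The change was +14.5% in the count and 0.081 ± 0.026 on the deposited scale (limma, p = 0.00325, adjusted p = 0.278). Kcnab1, the beta subunit that gives Kv1 channels rapid inactivation, changed by −6.70%, from 3046 ± 156 to 2842 ± 226 (limma, p = 0.0440, adjusted p = 0.508), and 9 of 10 libraries lay below the sham mean. Kcna1 itself changed by +4.68%, from 8170 ± 579 to 8553 ± 369 (limma, p = 0.0451, adjusted p = 0.508).

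In the ether-à-go-go family, Kcnh7 and Kcnh5 were higher. Kcnh7 had 2392, 2823 and 3125 in saline sham and 2579, 3148 and 3430 in saline HF-HI, a change of +9.99% (limma, p = 0.00935, adjusted p = 0.367) with 9 of 10 libraries above the sham mean. Kcnh5 changed by +8.58% (limma, p = 0.0471, adjusted p = 0.517), and 7 of 10 libraries lay above the sham mean.

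Among the inward rectifiers, Kcnj11 (chr7:46097123-46100952), the pore of ATP-sensitive potassium channels, had a lowest count of 491, a median of 564 and a highest of 706 in saline sham and 544, 671 and 711 in saline HF-HI. All but 1 of the sham libraries lay below the impacted median. The change was +13.7% in the count and 0.060 ± 0.020 on the deposited scale (limma, p = 0.00405, adjusted p = 0.280). Kcnj9 (chr1:172320508-172329322), a subunit of G-protein-gated channels, had 1892, 2194 and 2311 in saline sham and 1963, 2357 and 2557 in saline HF-HI, a change of +8.33% (limma, p = 0.0151, adjusted p = 0.413). Kcnj2, a strong inward rectifier, went the other way, with 665, 771 and 962 in saline sham and 643, 701 and 785 in saline HF-HI. Its change was −10.1% (limma, p = 0.00827, adjusted p = 0.346), and 9 of 10 libraries lay below the sham mean.

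The smallest p of any channel in this comparison belonged to Kcnt2 (NM_001081027, chr1:140245657-140614045), a potassium channel opened by intracellular sodium. Its counts were 1572, 1784 and 2048 (lowest, median, highest) in saline sham and 1757, 1977 and 2226 in saline HF-HI. Of the impacted libraries 9 of 10 lay above the sham mean, and the change was +11.6% in the count and 0.082 ± 0.025 on the deposited scale (limma, p = 0.00234, adjusted p = 0.250). Kcnn3, a small-conductance calcium-activated channel, had 610, 749 and 973 in saline sham and 493, 628 and 790 in saline HF-HI, a change of −14.7% (limma, p = 0.0171, adjusted p = 0.415).

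Kcns2, a silent subunit that modifies Kv2 channels, had the largest change, but it rested on 2 libraries. Its count was 402 to 1048 in saline sham with a median of 879, while in saline HF-HI replicate 5 was listed at 0 and replicate 10 at 8.76, and the other libraries of that group ran from 749 to 909. The mean changed by −25.8% (limma, p = 0.0231, adjusted p = 0.446), but the permutation test gave p = 0.137. With both libraries left out the change on the deposited scale was −0.033 in place of −0.24 (limma, p = 0.371), and the number of channel transcripts called in this comparison was 10 in place of 16. The other calls lost without them were Scn3a (p = 0.0510), Kcnj9 (p = 0.0560), Kcnab1 (p = 0.0765), Kcnh5 (p = 0.111) and Cacna1e (p = 0.130) (limma, unadjusted). Leaving out either one alone also ended the Kcns2 call. The share over all transcripts without both libraries is not given.

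**Figure D3:**
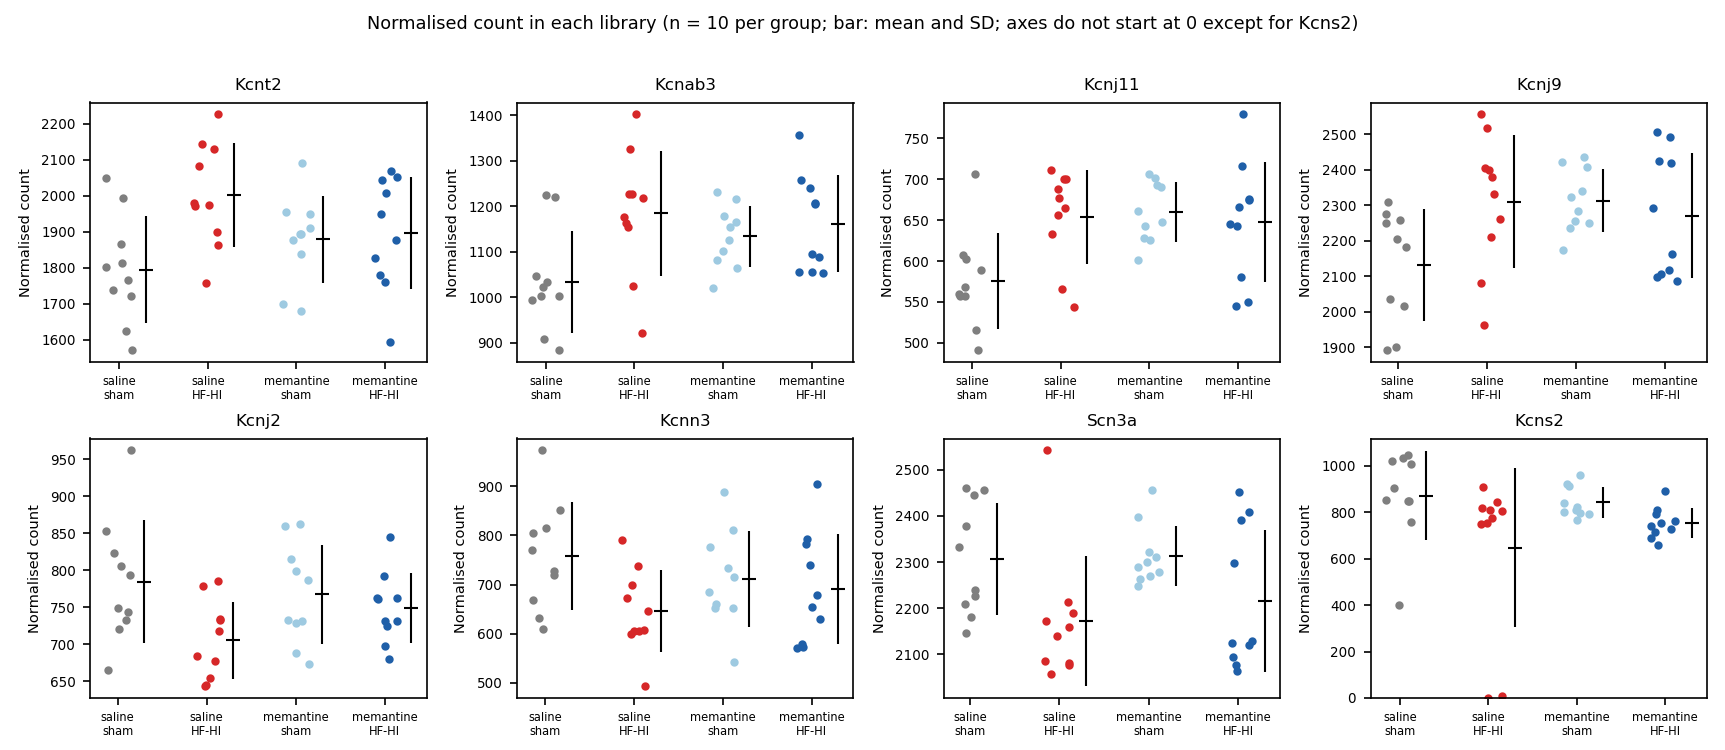
Normalised counts of 8 channel transcripts in each library, by group, with the mean and SD beside the points. Kcnt2, Kcnab3, Kcnj11 and Kcnj9 are higher and Kcnj2, Kcnn3 and Scn3a lower in saline HF-HI than in saline sham with overlapping points, and 2 saline HF-HI libraries of Kcns2 lie at or near 0.

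With the rows of each gene summed, 18 of 61 channel genes were called between saline HF-HI and saline sham, against 10.7% of all summed genes. They were 9 higher (5.09% of all) and 9 lower (5.57% of all), with none at an adjusted p-value under 0.1 (0.358% of all). The sums added 2 genes none of whose rows was called. Cacnb4, a calcium channel beta subunit of cerebral cortex and cerebellum, had a summed count of 8434 to 10143 with a median of 9304 in saline sham and of 9296 to 10541 with a median of 9680 in saline HF-HI. All 10 impacted libraries lay above the sham mean, the change was +5.82%, and leaving out any single library kept the call (limma, p = 0.0105, adjusted p = 0.305). Scn1a, the sodium channel pore prominent in fast-spiking interneurons, had a summed count of 6751 to 8638 with a median of 7477 in saline sham and of 6893 to 8783 with a median of 8127 in saline HF-HI. Its change was +6.62% (limma, p = 0.0181, adjusted p = 0.359), but the permutation test gave p = 0.0711 and leaving out the Kcns2-low libraries gave p = 0.0587.

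Striatal markers moved with this comparison. Of their 11 transcripts 6 were called lower and 0 higher, with a median change of −0.12 on the deposited scale. With the mean of the striatal transcripts of each library as a covariate, 12 of the 16 calls were lost and 4 of 81 channel transcripts passed, against 6.15% of all transcripts in that fit. They were Kcnt2 (p = 0.0148), Kcnj11 (p = 0.0154), Kcns2 (p = 0.0408) and Kcnab3 (p = 0.0423). The changes of Cacna2d3 and Kcnab1 on the deposited scale were −0.016 and −0.012 in that fit (limma, p = 0.334 and 0.584). Among sums by gene 5 of 61 passed with the covariate, against 6.35% of all summed genes, among them Cacnb4 (limma, p = 0.0499), while Scn1a had p = 0.120. Of 5 interneuron marker transcripts, 1 was higher and 3 were lower, and their summed count had a mean of 14751 ± 1252 in saline sham and 13761 ± 933 in saline HF-HI. Of 7 cortical excitatory neuron marker transcripts 2 were higher. In each of the astrocyte (9 transcripts), microglia (5), oligodendrocyte (14) and endothelial (2) lists 1 transcript was higher and 0 lower. In the thalamus list 0 of 2 transcripts were called. Only 2 of 5 genes had rows in the endothelial list and in the thalamus list. Of all transcripts 4.58% were higher and 4.95% lower in this comparison. The part of the interneuron and excitatory markers in the channel results was not tested.

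The next comparison asked whether impact was followed by the same differences under memantine. Between the memantine HF-HI and memantine sham groups, 0 of 81 channel transcripts were called, against 4.61% of all transcripts, and 0 of 61 summed genes, against 4.46% (0.017% of all summed genes at an adjusted p-value under 0.1). At an unadjusted p of 0.05 the count by limma with only the memantine groups in the fit was 1, and the share over all transcripts there is not given. The smallest p was 0.0715 for Kcnq5 NM_001310477, followed by 0.0799 for Scn3a and 0.0841 for Kcnf1, a modifier subunit. The 16 transcripts called under saline changed by 0.921% to 10.5% in size here. Scn3a had a change of −4.21% beside −5.85% under saline, and its counts in memantine HF-HI had a median of 2127 against 2294 in memantine sham, with 7 of 10 libraries below the sham mean. Kcnt2 had +0.923% beside +11.6%, Kcnab3 +2.45% beside +14.5%, Kcnj11 −1.87% beside +13.7% and Kcnn3 −2.99% beside −14.7%.

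**Figure D4:**
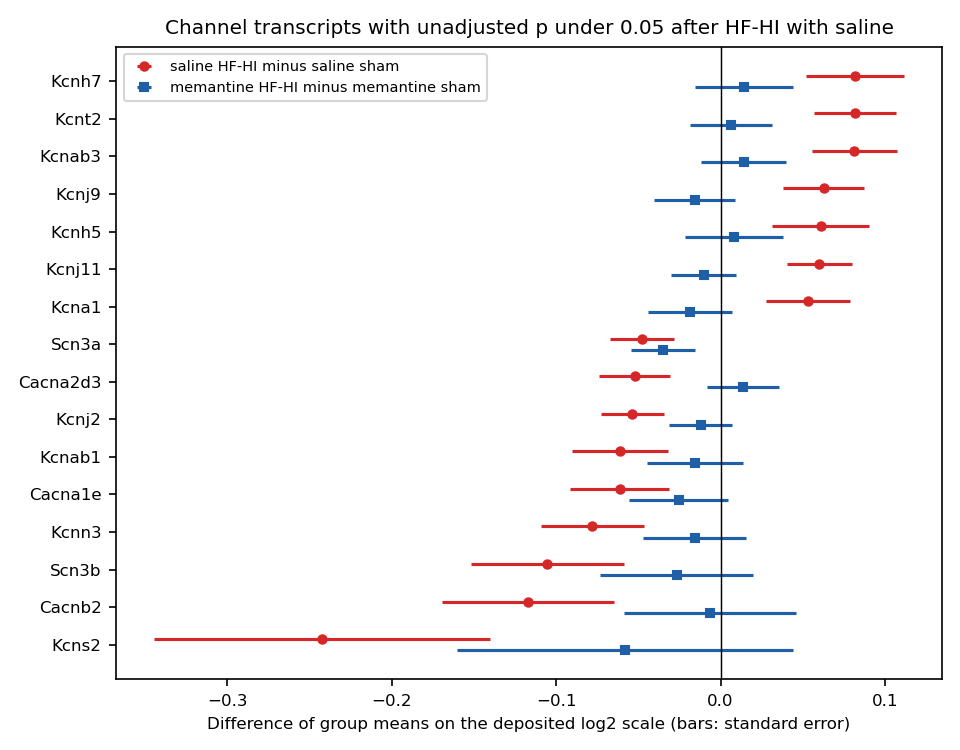
Difference between HF-HI and sham on the deposited log2 scale (points, bars of 1 standard error) for the 16 channel transcripts called under saline, with saline (circles) and with memantine (squares). The saline values, from −0.24 to 0.082, are larger in size than the memantine values for each transcript; the transcripts were chosen on the saline comparison.

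The difference between the impact effects was tested as the interaction of impact and drug. It was called for 5 of 81 channel transcripts, against 3.73% of all transcripts, 2 of them positive (1.92% of all) and 3 negative (1.82% of all). Kcnj11 (−0.070 ± 0.028, p = 0.0156), Kcnj9 (−0.078 ± 0.035, p = 0.0300) and Kcnt2 (−0.075 ± 0.035, p = 0.0396) had a negative interaction, being higher after impact with saline by 13.7%, 8.33% and 11.6% and changing by −1.87%, −1.84% and +0.923% with memantine (limma, unadjusted). Cacna2d3 (0.066 ± 0.031, p = 0.0389) and Kcnq5 NM_001310477 (0.31 ± 0.15, p = 0.0433) had a positive one, changing by −5.52% and −16.6% with saline and by +1.58% and +26.1% with memantine (limma, unadjusted). The adjusted p-value was 0.999 for each. With each library left out in turn, Kcnj11 kept its call, while Kcnj9 lost it in 4, Cacna2d3 in 13, Kcnt2 in 15 and the Kcnq5 row in 18 of 40 fits. Without the Kcns2-low libraries Kcnj9 and the Kcnq5 row lost the call (limma, p = 0.0679 and 0.0949), and with the striatal covariate only Kcnj11 among the 5 kept it (limma, p = 0.0295). The Kcnq5 counts ran from 88.7 to 1734 in memantine sham and from 1095 to 1746 in memantine HF-HI. With the rows summed, 4 of 61 genes were called, against 3.61% of all summed genes, 1 positive (1.79% of all) and 3 negative (1.82% of all). The sum of both Kcnq5 rows had an interaction of 0.073 ± 0.085 (limma, p = 0.396). For the other 12 transcripts called under saline, the interaction had an unadjusted p from 0.0559 for Kcna1 to 0.642 for Scn3a, so a difference between the drug arms was not shown for them.

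In sham mice the drug itself was compared, which shares the saline sham libraries with the comparison of impact under saline. Between memantine sham and saline sham, 5 of 81 channel transcripts were called, against 7.51% of all transcripts, 4 of them higher (3.67% of all) and 1 lower (3.84% of all). Kcnj11 had counts of 601, 655 and 706 (lowest, median, highest) in memantine sham beside 491, 564 and 706 in saline sham, and all 10 memantine libraries lay above the saline mean. The change was +14.7% (limma, p = 0.00211, adjusted p = 0.462). Kcna1 had 8306, 8691 and 9316 in memantine sham beside 7314, 8182 and 8984 in saline sham, a change of +7.46% (limma, p = 0.00247, adjusted p = 0.462), again with 10 of 10 libraries above the saline mean. Kcnj9 changed by +8.45% (p = 0.0122), Kcnab3 by +9.66% (p = 0.0360) and Cacna2d3 by −5.33% (p = 0.0274) (limma, unadjusted). Kcnab3 lost this call in 9 and Cacna2d3 in 3 of 40 fits that left out 1 library.

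These 5 transcripts were also called after impact under saline, in the same direction, and both comparisons use the saline sham libraries as the reference. Kcnj11 had means of 575 ± 58.5 with saline sham, 654 ± 57.4 with saline HF-HI, 660 ± 36.6 with memantine sham and 647 ± 73.5 with memantine HF-HI. Saline sham was thus the lowest of the 4 groups. Kcnj9 had 2133 ± 158, 2311 ± 186, 2313 ± 88.3 and 2271 ± 175 in the same order, and Cacna2d3 3748 ± 214, 3541 ± 188, 3549 ± 119 and 3605 ± 220. With the rows summed, Scn8a was also called, and 6 of 61 genes in all, against 7.85% of all summed genes, 5 higher (3.81% of all) and 1 lower (4.04% of all), with none at an adjusted p-value under 0.1 (0.0511% of all). The Scn8a sum had a lowest count of 10270, a median of 11353 and a highest of 11903 in saline sham and 11455, 11881 and 12991 in memantine sham. All 10 memantine libraries lay above the saline mean, the change was +6.78%, and the call held with each library left out in turn (limma, p = 0.00455, adjusted p = 0.405). Neither Scn8a row was called by itself (limma, p = 0.765 and 0.767).

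**Figure D5:**
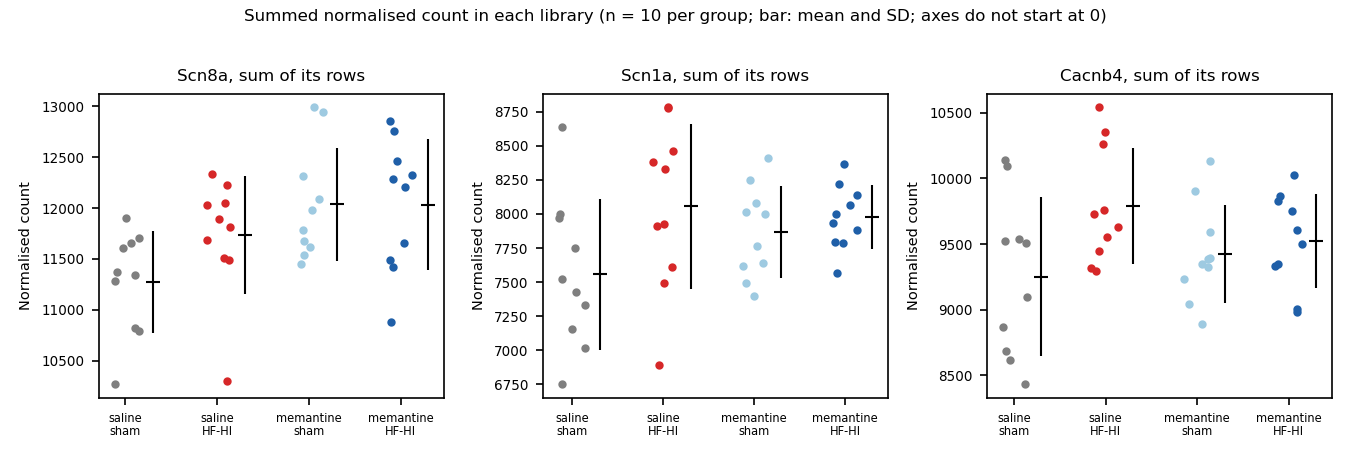
Summed normalised counts of the rows of Scn8a, Scn1a and Cacnb4 in each library, by group, with the mean and SD beside the points. The means of Scn8a are 11274, 11736, 12039 and 12035 from saline sham to memantine HF-HI, while for Scn1a and Cacnb4 saline HF-HI has the highest mean, 8058 and 9790.

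In impacted mice, memantine HF-HI against saline HF-HI, 0 of 81 channel transcripts and 0 of 61 summed genes were called, against 3.91% of all transcripts and 3.54% of all summed genes. The smallest p was 0.0564, for a row of Kcnma1, the large-conductance calcium-activated channel. The count at the unadjusted level was 2 with limma array weights and 1 on the scale of log2 counts plus 1. Shares over all transcripts under these settings are not given.

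Averaged over both drug arms, HF-HI against sham called 10 of 81 channel transcripts, against 9.66% of all transcripts, 3 higher (4.61% of all) and 7 lower (5.05% of all). Scn3a had the smallest p (−0.041 ± 0.014, limma, p = 0.00460, adjusted p = 0.248) and kept its call with each library left out in turn and with the striatal covariate (p = 0.0288). Kcnab3, Kcnt2 and Kcnh7 were higher, and Kcnj2, Kcnk1, Hcn2, Kcnn3, Kcns2 and Cacna1e were lower. With the striatal covariate 7 of the 10 calls were lost, Hcn2 and Kcnk1 being the others that kept theirs (limma, p = 0.0414 and 0.0475), and 4 of 81 transcripts passed, against 7.85% of all transcripts. Leaving out 1 library ended the call of Kcnn3 in 18, of Kcns2 in 20 and of Cacna1e in 26 of 40 fits. Kcnk1 and Hcn2 were called here but in neither arm alone. Kcnk1, a leak channel, had means of 1486 ± 97.6, 1427 ± 41.6, 1474 ± 50.8 and 1438 ± 43.7 (SD) from saline sham to memantine HF-HI (limma, p = 0.0260, adjusted p = 0.448). Hcn2, a channel of the hyperpolarisation-activated current, had 1492 ± 95.8, 1411 ± 152, 1566 ± 132 and 1476 ± 102 (limma, p = 0.0311, adjusted p = 0.469). With the rows summed, 13 of 61 genes were called, against 10.9% of all summed genes. They were 5 higher (5.14% of all) and 8 lower (5.81% of all), with none at an adjusted p-value under 0.1 (0.868% of all).

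The families without a called row in any contrast were those of Kv2, Kv3, large-conductance calcium-activated, T-type and L-type channels. They include Kcnb2, Kcnc1, Kcnc2, Kcnc4, Kcnma1, Kcnmb4, Cacna1g, Cacna1h, Cacna1i, Cacna1c and Cacna1d. Cacna1c, the L-type pore, is an example of a row with a wide spread, since its counts ran from 838 to 3390 in saline sham and from 586 to 3125 in saline HF-HI. The median change over all 81 channel transcripts was −0.0030 for impact with saline and −0.016 for impact with memantine.

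Genes whose products anchor, bind or regulate these channels were counted from a list of 32, of which 31 had rows, 52 in all. For impact with saline 9.53% of all transcripts were called, and 6.38% of rows of genes with several rows, a kind found among the partners. The share among the partners was not tested against these. Of the 52 partner rows 2 were called. They were Adam22 NM_001098225, which encodes a membrane protein that joins Kv1 channel complexes on axons (4774 ± 568 and 5423 ± 637, limma, p = 0.0215, adjusted p = 0.445), and Unc79, which encodes a subunit of the sodium leak channel complex (3905 ± 176 and 3786 ± 95.2, limma, p = 0.0371, adjusted p = 0.490). For impact with memantine 5 of 52 were called, against 4.61% of all transcripts, with the smallest p for the same Adam22 row (4644 ± 593 and 5347 ± 560, limma, p = 0.0109, adjusted p = 0.967) and for Nedd4l NM_031881, a ubiquitin ligase of channels (3107 ± 568 and 2498 ± 543, limma, p = 0.0116, adjusted p = 0.967). Another Adam22 row, NM_001310440, was lower in that comparison (5407 ± 547 and 4688 ± 924, limma, p = 0.0297). Another Nedd4l row, NM_001114386, was higher (1438 ± 491 and 1882 ± 439, limma, p = 0.0423). With saline, Adam22 NM_001310440 had 5093 ± 627 in sham and 4946 ± 867 in HF-HI mice. Over both drug arms the smallest p among the partners was again that of Adam22 NM_001098225 (limma, p = 0.000936, adjusted p = 0.128), followed by Nedd4l NM_031881 (limma, p = 0.0116, adjusted p = 0.337). Adam22 and Nedd4l have several rows, and their called rows moved in opposite directions under memantine. Sums by gene of the partners are not given, so a change of either gene as a whole is not shown.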

How the data were processed

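RNA of cortex from 40 mice was sequenced by the authors, 10 libraries for each of 4 groups taken from the labels. Per the study's methods, ribosomal RNA was depleted, stranded paired reads were aligned to mm10 with STAR and counted per transcript with eXpress, whereas the submitters' processing notes name HISAT2 and StringTie. The values deposited by the authors are on a log2 scale, after DESeq2 size factors and a variance-stabilising transformation. Only abundant transcripts are listed (lowest mean normalised count 549), and the threshold is not given in the sources used here.

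Normalised counts were obtained by inverting the transformation, whose lowest value of 10.36 is a count of 0. In each library 100% of values under 5000 were then whole reads divided by one size factor, within a tolerance of 0.1 reads. Counting error alone amounts to 4.27% (coefficient of variation) at the lowest mean count. Symbols came from RefSeq (GRCm38) and transcript lengths and exons from GENCODE M21, which matched 79 of 81 rows.

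limma 3.58.1 (R 4.3.3, trended prior) was fitted to all 6831 transcripts with 1 term per group, over 40 libraries, and again to counts summed by symbol. There were 6 two-sided contrasts, with Benjamini-Hochberg adjustment over the whole table. Unadjusted thresholds were 0.05 and adjusted ones 0.1. Fitting was tested on simulated data. No library pair was identical. p-values measure the spread between libraries, each labelled as a mouse's cortex without a stated batch. The channel rule, the marker and partner lists and the naming rule were chosen with earlier results of these data known. Named transcripts were the 5 higher and 5 lower with the smallest p among those called for impact with saline, 3 and 3 in each other contrast, the most abundant per kb in each family, other rows and sums of those genes, and listed core channels where called. The tests of Kcnh5, Kcnf1 and a Kcnma1 row, that of Kcnab3 in sham mice, that of Kcns2 over both drug arms, the sums of Scn8a, Scn1a and Cacnb4, and the Scn8a, Scn1a, Kcnj3 and Cacna1a rows shown for their shares were chosen after their values were seen. Alternatives were a replicate block, log2 counts plus a pseudocount of 1, no trend, quantile and median scaling, a mean count of at least 1000, sums by symbol, array weights, a striatal covariate, only the compared groups and each library left out. Levels of some channel transcripts are not reported here.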

Additional observations from a re-analysis of the deposited data

Results flagged for a closer look

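Of 88 combinations of a called channel row or sum with a group of 10 libraries, 7 had a lowest or highest library set apart from the rest by Dixon's ratio, and chance flags about 1 in 20. In saline sham, Cacna2d3 was lowest in replicate 8 (3244, next 3661) and Kcns2 in replicate 10 (402, next 759). In saline HF-HI, Scn3a was highest in replicate 1 (2542, next 2214), Kcnq5 NM_001310477 was highest in replicate 8 (2257, next 1207), and the Scn8a sum was lowest in replicate 1 (10304, next 11494). In memantine sham, Cacna2d3 was lowest in replicate 6 (3263, next 3463) and Kcnh7 in replicate 1 (2570, next 2823). The Kcns2 libraries of saline HF-HI at 0 and 8.76 lie close together and so were not set apart by this ratio.

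The interaction in limma, unadjusted, called a difference of the impact change between the drug arms for 5 of 81 channel transcripts. Among all transcripts 3.73% were called. The differences on the deposited scale were −0.070 for Kcnj11 (p = 0.0156), −0.078 for Kcnj9 (p = 0.0300), 0.066 for Cacna2d3 (p = 0.0389), −0.075 for Kcnt2 (p = 0.0396) and 0.31 for Kcnq5 NM_001310477 (p = 0.0433). Each had an adjusted p-value of 0.999. With 1 library left out at a time, Kcnj9 lost the call in 4, Cacna2d3 in 13, Kcnt2 in 15 and the Kcnq5 row in 18 of 40 fits. With the striatal covariate only Kcnj11 kept it.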

How the results depend on the processing

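No alternative turned the direction of a called channel change. With 1 library left out at a time, the number of channel transcripts at an unadjusted limma p under 0.05 ran from 11 to 19 for impact with saline (16 with all libraries), 0 to 2 for impact with memantine (0), 4 to 10 for the drug in sham mice (5), 0 to 3 for the drug in impacted mice (0), 2 to 11 for the interaction (5) and 7 to 14 for impact over both arms (10). For sums by gene these ranges were 13 to 22 (18), 0 to 2 (0), 5 to 10 (6), 0 to 2 (0), 2 to 10 (4) and 7 to 16 (13). Without saline HF-HI replicate 1 the interaction had its highest counts, 11 transcripts and 10 sums, and without memantine sham replicate 9 the drug in sham mice had 10 of each. At an adjusted p under 0.1, leaving out 1 library gave 0 to 1 transcripts and 0 to 4 sums for impact with saline, and 0 to 1 of each over both arms, the highest values without saline HF-HI replicate 1. The striatal covariate gave 4, 8, 1, 1 and 4 transcripts for impact with saline, the drug in sham mice, the drug in impacted mice, the interaction and impact over both arms, and for sums 5, 1, 1 and 4 in the same order without the drug in sham mice. Leaving out both Kcns2-low libraries, chosen after seeing the data, gave 10 transcripts for impact with saline, 1 transcript and 1 sum for the drug in impacted mice and 3 transcripts for the interaction. Array weights gave 9 transcripts for the drug in sham mice, 2 for the drug in impacted mice and 8 for the interaction. With only the compared groups in the fit, 4 of the 16 calls for impact with saline were lost (Cacna1e, Kcna1, Kcnh5 and Kcns2). Median and quantile scaling each ended 2 of these 16 (Cacna1e and Kcnab1) and 3 of the 10 calls over both arms. With only the compared groups, impact with memantine and the drug in impacted mice each had 1, and log2 counts plus 1 gave 1 for the drug in impacted mice. Shares over all transcripts are given above for the first fit and, in some contrasts, with the striatal covariate. For the other settings they are not given, so these counts cannot be read as particular to channels. The cause of these moves was not tested.

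No pairing of the libraries by replicate number was seen in the correlations of their deviations from group means. Over 60 same-number pairs the correlation of deviations ran from −0.13 to 0.16, with 4 above 0.1, and 3 of 40 libraries correlated best with their own number. With the replicate number as a block, 17 channel transcripts were called for impact with saline, 6 for the drug in sham mice and 11 over both arms. The share over all transcripts in that fit is not given.

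The table lists abundant transcripts alone, so channels of low level are not described.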
